A study of Arabidopsis thaliana with 12 samples.

Results

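The 40 loci described here are the core and linker histone genes of Arabidopsis thaliana, taken from a given list of locus identifiers and found in the count tables after the transcript suffix was removed. They are 40 of the 33602 loci in those tables, and all 40 were among the 19924 loci with enough reads to be tested. The list holds 4 canonical H2A, 8 H2B, 5 H3.1 and 8 H4 genes, grouped as 25 replication-dependent genes, and 3 H2A.Z and 3 H3.3 genes, grouped as 6 replacement genes. The other 9 are 2 H2A.X, 3 H2A.W, the centromeric H3 gene and 3 H1 genes. Loci for which the RefSeq gene table (TAIR10.1) holds only a locus identifier are named by that identifier.

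The study sequenced messenger RNA of untreated seedlings at Boyes stage 1.02, with stranded single-end Ion Torrent Proton libraries. All plants were of the Col-0 ecotype, and each of 4 genotypes had 3 libraries. Col-0 was wild type, DPB2oe12.1.5 and DPB2oe1.11.5 were lines that overexpress DPB2, the gene of the second subunit of DNA polymerase epsilon, and abo4-1 carried a mutation in the gene of its catalytic subunit (POL2A, AT1G08260; TIL1 in RefSeq), which the series describes as a knock-out. For the line called DPB2oe1.11.5 in the genotype label, and here, the sample titles give 1.11.2 instead. The sources used here name neither the promoter of the overexpression construct nor whether libraries came from separate sowings or pooled plants, so p-values measure only the spread between these libraries. In bulk seedlings, fewer cells of a type and less RNA per cell cannot be told apart.

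Histones package DNA into nucleosomes, each built on H2A, H2B, H3 and H4, with linker H1 between them. Canonical H2A, H2B, H3.1 and H4 are made mainly in S phase and are deposited behind the replication fork, where CAF-1 places H3.1. The replacement forms H3.3 and H2A.Z are put into chromatin outside replication too, by HIRA and ATRX and by the SWR1 complex. In plants the messages of replication-dependent histones carry poly(A) tails, so a library of selected messenger RNA holds them. DNA polymerase epsilon copies the leading strand.

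The H3.1 and H3.3 genes are shown first because the contrast between replication-dependent and replacement histones rests on telling them apart. Below is the same stretch of the 8 coding sequences, read from the TAIR10.1 genome on the coding strand from coding base 85 to coding base 135. Capitals mark the bases that differ from AT5G65360.
AT5G65360 (H3.1): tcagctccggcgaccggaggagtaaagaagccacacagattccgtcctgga
AT1G09200 (H3.1): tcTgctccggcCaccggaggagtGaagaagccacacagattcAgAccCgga
AT3G27360 (H3.1): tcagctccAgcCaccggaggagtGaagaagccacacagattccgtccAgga
AT5G10400 (H3.1): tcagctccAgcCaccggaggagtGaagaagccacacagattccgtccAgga
AT5G10390 (H3.1): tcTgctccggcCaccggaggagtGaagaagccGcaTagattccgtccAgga
AT4G40030 (H3.3): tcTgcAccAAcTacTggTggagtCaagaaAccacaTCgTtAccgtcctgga
AT4G40040 (H3.3): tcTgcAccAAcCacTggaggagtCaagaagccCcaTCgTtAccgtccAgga
AT5G10980 (H3.3): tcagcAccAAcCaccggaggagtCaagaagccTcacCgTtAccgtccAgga
The H3.1 genes differed from AT5G65360 at 4 to 6 of these 51 bases and the H3.3 genes at 10 to 13. Over the whole coding sequence of 411 bases, H3.1 pairs were 80.3% to 89.5% identical (median 84.5% over 10 pairs) and H3.1 to H3.3 pairs 74% to 80.3% (median 78.1% over 15 pairs). AT3G27360 and AT5G10400, identical over the stretch, were the closest H3.1 pair. The authors removed reads that matched several places, so sequence shared between genes lowers their counts. Of the 40 genes, 4 shared any window of 100 bases with a locus that does not overlap them, all of them H4, with 12.1% of windows at most. With windows of 50 bases it was 12 of 40, and the highest share, 28.5%, was again an H4 gene. AT3G53650, AT5G65360 and AT1G09200, on which much below turns, shared none at either length.

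Histone promoters are known for short shared elements, among them an octamer and a hexamer. The 300-base window from 250 bases before to 50 bases after each RefSeq transcript start was searched on both strands. The octamer CGCGGATC was in 10 of the 40 histone windows (25%) and in 41 of 27443 windows of protein-coding genes (0.149%), so that histone genes were 24.4% of all its carriers. It was in 3 of 5 H3.1, 2 of 4 canonical H2A and 2 of 8 H4 windows, and in none of the 8 H2B windows. The H3.1 matches are shown because this class has the largest share, with 10 flanking bases on each side and the octamer in capitals (TAIR10.1, gene strand).
AT5G65360, chr5:26120690-26120717, minus strand: ttagacgtgaCGCGGATCactaaaatta
AT1G09200, chr1:2972407-2972434, minus strand: cgtaccttcaCGCGGATCagtgttagaa
AT1G09200, chr1:2972336-2972363, minus strand: tgtgatttcaCGCGGATCgtgatagaaa
AT5G10400, chr5:3271060-3271087, minus strand: taacacaggaCGCGGATCgtaaagatac
AT1G09200 holds 2 copies. The octamer was preceded by an a in each of the 4 matches.

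The hexamer ACGTCA was in all 8 H2B windows, against 9.13% of all windows and 12 of the 40 histone windows (30%). The 9 H2B matches are shown because the element stands in each of these 8 windows, AT3G53650 with its lower level in abo4-1 included. The hexamer is in capitals, with up to 10 flanking bases on each side (TAIR10.1, gene strand).
HTB1 (AT1G07790), chr1:2412897-2412922, plus strand: agaaatatacACGTCAatgatcctcg
HTB2 (AT5G22880), chr5:7652894-7652919, minus strand: aaaagtaaccACGTCAgctatccacg
HTB2 (AT5G22880), chr5:7652697-7652722, minus strand: tcatatctccACGTCAcgcatccgcg
AT2G28720, chr2:12326748-12326773, plus strand: aacgtgatccACGTCAccaacgatac
HTB4 (AT5G59910), chr5:24126907-24126926, plus strand: aatctgggacACGTCAatag
AT2G37470, chr2:15736669-15736694, plus strand: tatttaagccACGTCAtcgatcctcg
AT3G53650, chr3:19889191-19889216, plus strand: gatggatgacACGTCAtcgatccgca
HTB9 (AT3G45980), chr3:16898154-16898179, minus strand: caatattgacACGTCAtcgatcccgc
HTB11 (AT3G46030), chr3:16914204-16914229, minus strand: aatatattccACGTCAtcaatcctcg
HTB2 holds 2 copies, and every match was on the gene's own strand. The HTB4 match starts 40 bases past the transcript start, and 1 of the HTB2 matches 2 bases past it. In AT2G37470, AT3G53650 and HTB9 the hexamer is followed by the same letters, tcgatcc. These letters also follow it in the H3.3 gene AT5G10980 and the H4 gene AT1G07820. The hexamer's letters do not occur within the octamer, 1 histone window (AT5G10400) held both, and 21 of 40 held at least 1 of them. An E2F-type site, TTTCCCGC or TTTGGCGC, was in 2 of 40 windows (5%), both H4, against 1.26% of all, and CCAAT in 31 (77.5%) against 51.3%. These are matches of letters and not tested sites.

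**Figure D1:**
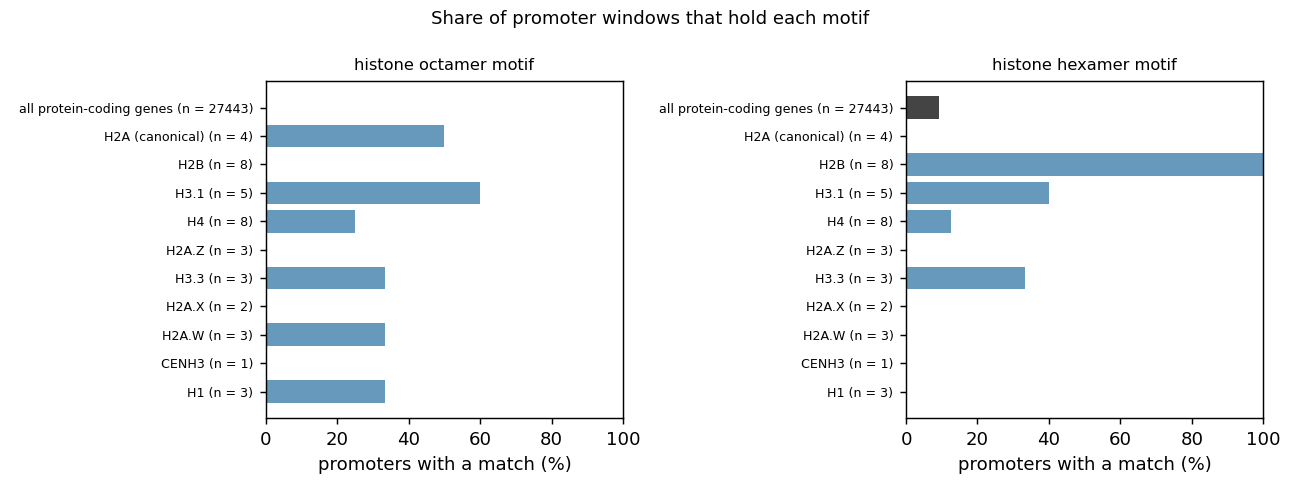
Share of promoter windows (percent, x axis) that hold the octamer (left) or the hexamer (right), by histone class and for all 27443 protein-coding genes (dark bar, which at 0.149% is too short to see on the left). The hexamer fills the H2B bar at 100%, where the octamer bar is empty.

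Counted reads ranged from 10902547 to 29456111 per library. DPB2 rose by 5.27 on the log2 scale in DPB2oe12.1.5 (edgeR adjusted p = 1.72e-07) and by 5.25 in DPB2oe1.11.5 (1.76e-07), as their labels state. POL2A was at 16.4 ± 0.836 CPM in Col-0 and 25.4 ± 1.16 in abo4-1 (SD, n = 3; log2 0.62, edgeR adjusted p = 0.177), which does not check the abo4-1 label. POL2A was called as higher in DPB2oe1.11.5, at 29.5 ± 4.64 CPM (log2 0.84, edgeR adjusted p = 0.0453). DPB2oe12.1.5 had 0.35 (0.325). Seed storage and embryo transcripts, summed over EM6, PAP85 and CRA1, were at 9.97 ± 5.76 CPM in DPB2oe12.1.5 and 1.06 ± 0.300 in Col-0. LHY, a clock transcript that peaks at dawn, was at 173 to 217 CPM in DPB2oe1.11.5 replicate 2, DPB2oe12.1.5 replicates 1 and 2 and abo4-1 replicate 2, and at 3.97 to 48.1 CPM in the other 8 libraries. The part of LHY-linked variation in the genotype differences was not tested beyond the values given below.

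Levels are given as CPM, counts per 1000000 counted reads after TMM scaling, and levels of different genes are compared only as CPM per kb of the transcript length in the tables. Averaged over all 12 libraries, the H3.1 gene AT5G65360 was highest at 306 CPM per kb. The H3.3 genes AT4G40030, AT4G40040 and AT5G10980 followed at 272, 260 and 224, with HTB4 (H2B) and AT1G06760 (H1) both at 242 and AT5G59690 (H4) at 221. At the other end were HTR12 (centromeric H3) at 6.82, AT3G53650 (H2B) at 13.1, HTA8 (H2A.Z) at 13.2 and HIS1-3 (H1) at 13.7. The deposited length of AT3G53650 is that of its coding sequence, 417 bases, while its RefSeq transcript has 955. Levels within a class were uneven: AT5G65360 made up a fraction of 0.413 ± 0.0159 (SD, n = 3) of the H3.1 sum per kb in Col-0, and AT3G27360, the lowest H3.1 gene, stood at 17.7 CPM per kb.

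Against wild type, few histone genes passed the test in any genotype. In abo4-1, 2 of 40 were called by edgeR's quasi-likelihood test at an adjusted p under 0.05, 1 higher and 1 lower, where 0.783% of all tested loci were called, 0.567% as higher and 0.216% as lower. At an unadjusted p under 0.05, 5 were higher and 3 lower there, the 3 all H2B, as were 927 and 692 of 19924 loci. In DPB2oe1.11.5, 1 of 40 was called, lower, against 0.708% of loci, 0.532% as lower. At an unadjusted p under 0.05, 4 were higher and 8 lower, where 6.14% and 8.78% of loci were. In DPB2oe12.1.5 it was 0 of 40 against 0.427% of loci, with 6 genes higher and 3 lower at an unadjusted p under 0.05 (8.03% and 8.65% of loci) and 1 gene called by DESeq2 (AT5G65360). The median log2 fold change of the 25 replication-dependent genes was 0.00 in abo4-1, 0.10 in DPB2oe12.1.5 and -0.01 in DPB2oe1.11.5. That of the 6 replacement genes was -0.04, 0.05 and -0.21 in the same order, and that of all loci 0.00, 0.00 and 0.00. Genes whose 3 libraries all lay on the same side of all 3 Col-0 libraries numbered 9 in abo4-1 (14.5% of all loci did so), 6 in DPB2oe12.1.5 (22.8%) and 17 in DPB2oe1.11.5 (23.0%). The 17 were 6 above and 11 below. The 3 comparisons share the Col-0 libraries.

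**Figure D2:**
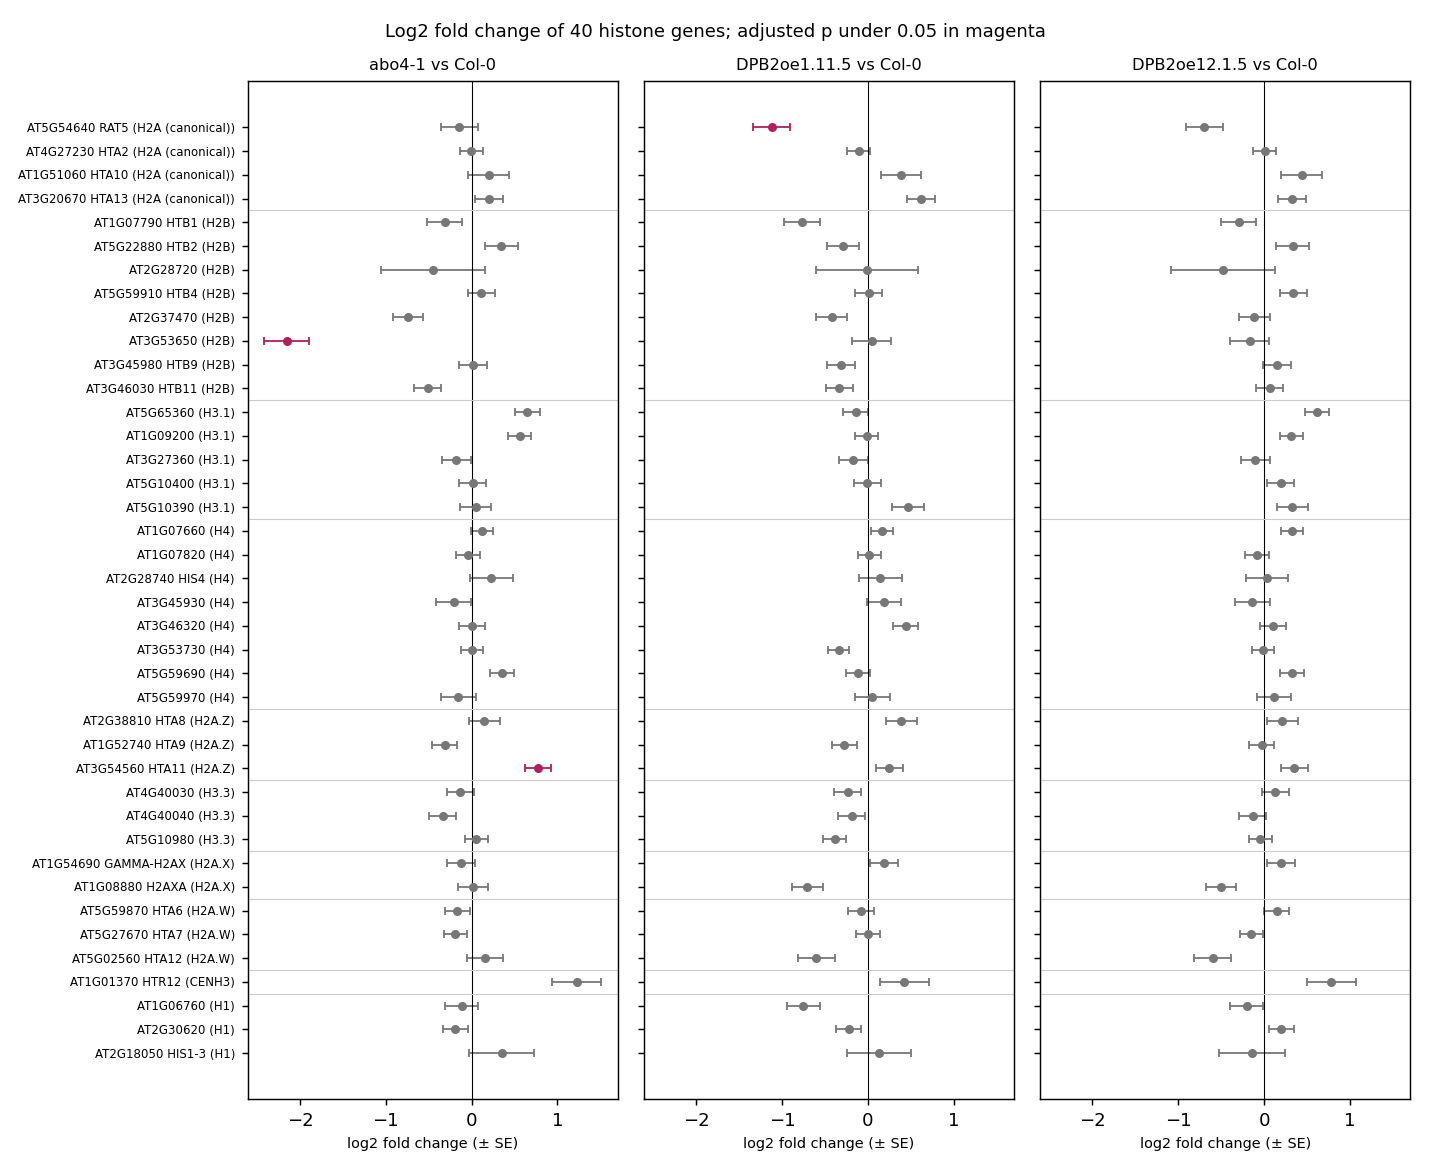
Log2 fold change against Col-0 with its standard error (x axis) for each of the 40 genes, grouped by class, in the 3 genotypes; magenta marks an adjusted p under 0.05. The coloured points are AT3G53650 (lower) and HTA11 (higher) in abo4-1 and RAT5 (lower) in DPB2oe1.11.5.

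AT3G53650, an H2B gene (TAIR10.1 chromosome 3, 19889297 to 19890251), was the histone gene with the largest difference. It stood at 7.68, 8.32 and 4.94 CPM in Col-0, at 1.33, 1.88 and 1.45 in abo4-1, at 4.82, 6.46 and 7.26 in DPB2oe12.1.5, with 6.57, 7.57 and 7.36 in DPB2oe1.11.5. Every abo4-1 library was thus below every library of the other 3 genotypes, which overlapped one another. The abo4-1 values rest on 24, 27 and 15 reads, against 60 to 212 in the other 9 libraries. It fell by 2.16 ± 0.26 (SE) on the log2 scale against Col-0 (edgeR adjusted p = 0.000981). It was also lower in abo4-1 than in DPB2oe1.11.5, by a log2 value of -2.20 (adjusted p = 0.000997), and than in DPB2oe12.1.5, by -1.99 (adjusted p = 0.00312). The call held in these 3 comparisons under every alternative run, with each library left out in turn included. Against Col-0, DPB2oe1.11.5 had a log2 value of 0.04 (adjusted p = 0.953) and DPB2oe12.1.5 one of -0.17 (0.733).

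None of the other 7 H2B genes, which supply the same core histone from other loci, was called in abo4-1. AT2G37470 had the next lowest value in abo4-1, at 47.6, 50.7 and 39.8 CPM in Col-0, 28.5, 24.1 and 30.2 in abo4-1, 38.6, 35.6 and 53.5 in DPB2oe12.1.5, with 37.2, 28.8 and 37.0 in DPB2oe1.11.5. Col-0 overlapped DPB2oe12.1.5 but neither of the other genotypes. Its log2 value of -0.74 did not pass (edgeR adjusted p = 0.0957), though it did with DESeq2 (0.0165), without the filter on low counts (0.0490) and with LHY as a covariate (0.0325). HTB4, the highest H2B gene, was at 184, 166 and 189.6 CPM in Col-0, 196, 214 and 173 in abo4-1, 179, 229 and 276 in DPB2oe12.1.5, with 164, 195 and 184 in DPB2oe1.11.5, and Col-0 overlapped each. HTB11 (AT3G46030), also named after its values were seen, was at 93.3, 59.5 and 73.3 CPM in Col-0 and 53.7, 56.1 and 49.0 in abo4-1, all below Col-0. Its log2 value of -0.51 did not pass (edgeR adjusted p = 0.256). The 8 H2B genes ran from -2.16 to 0.34 in abo4-1, with 1 called, and their summed level was 669.6 ± 73.4 CPM in Col-0 and 655.3 ± 29.9 in abo4-1 (SD, n = 3). The H2B sum was 565.1 ± 37.3 in DPB2oe1.11.5, while that of DPB2oe12.1.5 was 748 ± 93.4, and no H2B gene was called in either. HTB1 (AT1G07790), named after its values were seen, was at 83.7, 54.7 and 58.3 CPM in Col-0 and 29.2, 48.0 and 38.4 in DPB2oe1.11.5, all below Col-0. Its log2 value of -0.77 ± 0.21 (SE) did not pass (edgeR adjusted p = 0.107), and it was called with DESeq2, without DPB2oe1.11.5 replicate 2, without the 4 libraries of high LHY and with LHY as a covariate.

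HTA11, an H2A.Z gene (chromosome 3, 20196140 to 20197726), rose in abo4-1. Its CPM was 29.6, 24.2 and 28.7 in Col-0, 49.3, 47.8 and 44.1 in abo4-1, 27.4, 37.4 and 40.7 in DPB2oe12.1.5, with 35.7, 29.3 and 33.3 in DPB2oe1.11.5. The abo4-1 libraries lay above all 9 others. The log2 fold change against Col-0 was 0.77 ± 0.16 (SE; edgeR adjusted p = 0.0387). The call was lost when any 1 of the 6 libraries compared was left out (adjusted p = 0.0853 to 0.209), when only these genotypes were fitted (0.0534) and with a replicate block (0.0553). HTA9, the most abundant H2A.Z gene, was at 123, 114 and 105 CPM in Col-0, 109, 80.9 and 84.8 in abo4-1, 108, 101 and 125 in DPB2oe12.1.5, with 101, 84.7 and 96.4 in DPB2oe1.11.5. Only the DPB2oe1.11.5 libraries lay wholly below Col-0. In abo4-1 its log2 value was -0.31 (adjusted p = 0.624), and HTA8 had 0.15. Between HTA11 and AT3G53650 on chromosome 3 lies the H4 gene AT3G53730, whose log2 value in abo4-1 was 0.00.

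RAT5 (AT5G54640, also HTA1), a canonical H2A gene known from plants resistant to Agrobacterium transformation, was the called gene of DPB2oe1.11.5. Its CPM was 56.7, 39.9 and 35.4 in Col-0, 43.4, 37.1 and 39.3 in abo4-1, 26.3, 19.9 and 35.4 in DPB2oe12.1.5, with 18.4, 23.1 and 19.4 in DPB2oe1.11.5. The DPB2oe1.11.5 libraries were below all Col-0 and all abo4-1 libraries, and overlapped those of DPB2oe12.1.5. It fell by 1.12 ± 0.22 (SE) on the log2 scale (edgeR adjusted p = 0.0343). Without any 1 of the Col-0 libraries the adjusted p was 0.114, 0.0831 and 0.0601, and without DPB2oe1.11.5 replicate 1 or 3 it was 0.215 and 0.176, so that each of these 5 libraries decides the call. The value in DPB2oe12.1.5, -0.70, did not pass (adjusted p = 0.146), and the difference between both overexpressors did not pass (0.318). The other canonical H2A genes went from -0.11 to 0.62 in DPB2oe1.11.5, the highest being HTA13 (adjusted p = 0.105). HTA13 was at 21.7, 26.3 and 29.1 CPM in Col-0, 32.3, 29.2 and 27.0 in abo4-1, 37.6, 30.3 and 28.7 in DPB2oe12.1.5, with 46.1, 33.6 and 38.7 in DPB2oe1.11.5, the last above all Col-0 libraries. The canonical H2A sum was 164 ± 10.4 CPM in DPB2oe1.11.5, beside 162 ± 1.43 in Col-0. HTA10, the most abundant per kb, was at 36.1, 54.9 and 55.9 CPM in Col-0, 41.6, 74.0 and 52.5 in abo4-1, 83.8, 63.7 and 50.9 in DPB2oe12.1.5, with 68.8, 61.1 and 61.9 in DPB2oe1.11.5. The DPB2oe1.11.5 libraries lay above Col-0 (log2 0.39, adjusted p = 0.479), and the other genotypes overlapped it.

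**Figure D3:**
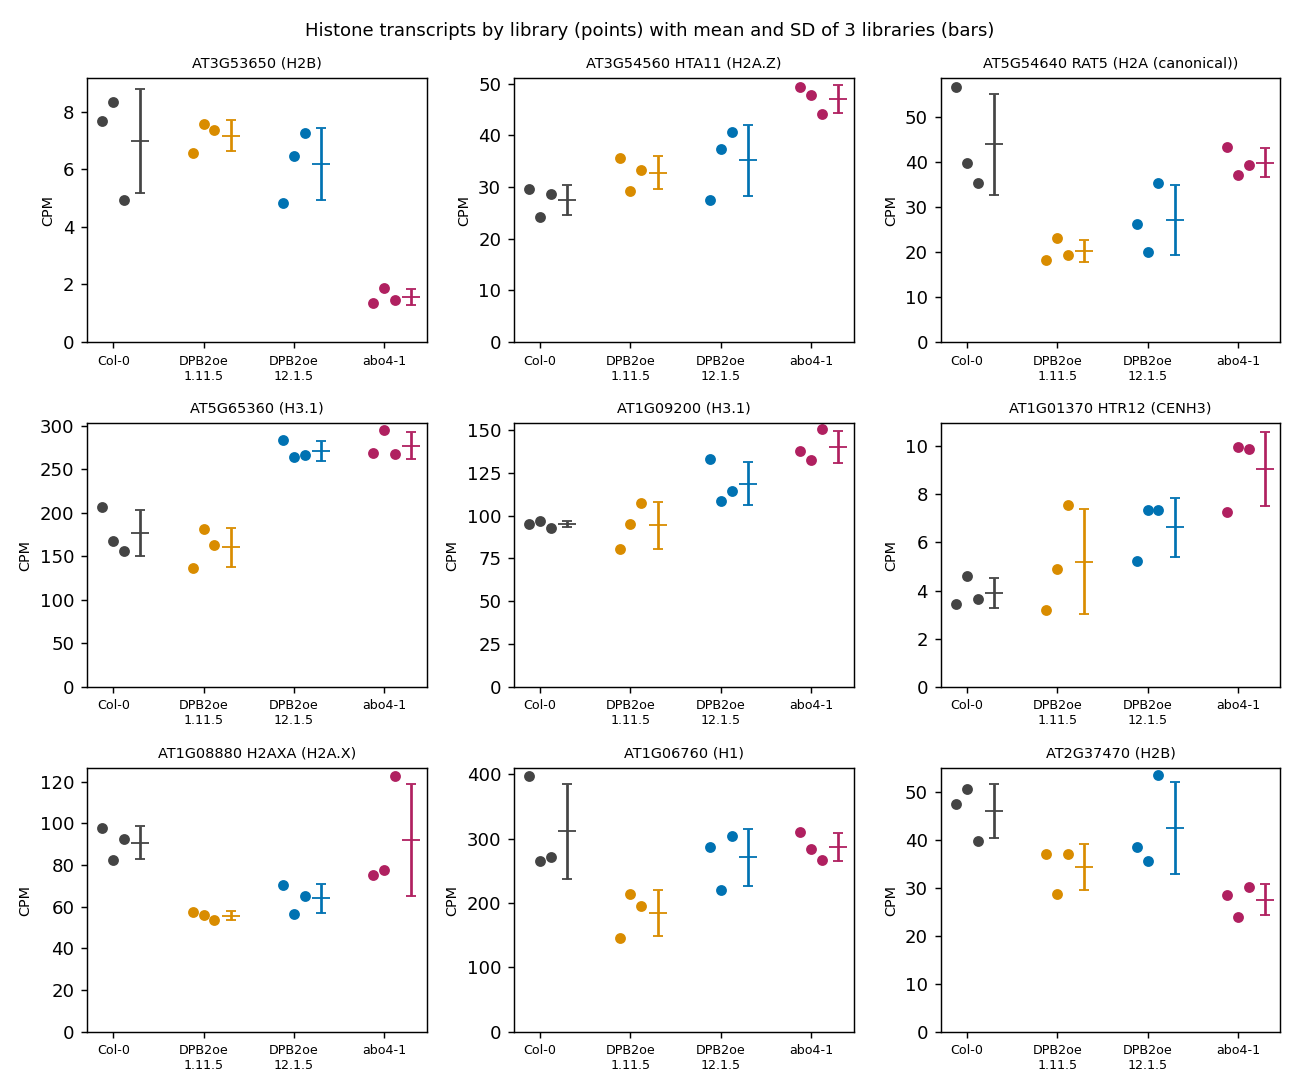
CPM (y axis) in each of the 12 libraries by genotype for 9 histone genes; bars give the mean and SD of 3 libraries. AT3G53650 is at 1.33 to 1.88 CPM in abo4-1, below all other libraries, and RAT5 is at 18.4 to 23.1 CPM in DPB2oe1.11.5.

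Among H3.1 genes, AT5G65360 had the highest level per kb. Its CPM was 206, 168 and 156 in Col-0, 269, 295 and 267 in abo4-1, 284, 264 and 266 in DPB2oe12.1.5, with 136, 181 and 163 in DPB2oe1.11.5. The DPB2oe12.1.5 and abo4-1 libraries lay above all 6 libraries of Col-0 and DPB2oe1.11.5. Against Col-0 the log2 fold change was 0.65 ± 0.14 in abo4-1 and 0.62 ± 0.14 in DPB2oe12.1.5 (SE), neither of which passed by edgeR (adjusted p = 0.0605 and 0.0792), while both passed by DESeq2 (0.00408 and 0.00616). In abo4-1 it also passed without Col-0 replicate 1 (0.0483) and with LHY as a covariate (0.0180). The direct difference between abo4-1 and DPB2oe1.11.5 was 0.79 and passed (edgeR adjusted p = 0.0177). That call was lost with only these genotypes fitted and without replicate 1 or 3 of either. The difference between the overexpressors, 0.76, did not pass (0.0640). AT1G09200 was at 95.1, 97.0 and 93.0 CPM in Col-0, 137, 132 and 150.3 in abo4-1, 133, 108.5 and 114 in DPB2oe12.1.5, with 80.2, 95.1 and 107 in DPB2oe1.11.5. Its abo4-1 and DPB2oe12.1.5 libraries lay above Col-0, and in abo4-1 the log2 value was 0.56 (adjusted p = 0.0957; DESeq2 0.0122). The other 3 H3.1 genes ran from -0.18 to 0.05 in abo4-1.

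The H3.1 sum was 401.6 ± 45.7 CPM in Col-0, 547 ± 23.8 in abo4-1, 537 ± 22.5 in DPB2oe12.1.5 and 391 ± 30.9 in DPB2oe1.11.5 (SD, n = 3). The H3.3 sum was 636 ± 42.3, 571.5 ± 60.0, 629 ± 59.0 and 533.5 ± 51.4 in the same order, and no H3.3 gene was called in any genotype. AT4G40030, the highest H3.3 gene, was at 231, 218 and 201 CPM in Col-0, 199, 232 and 162 in abo4-1, 221, 226 and 265 in DPB2oe12.1.5, with 159, 210.3 and 184 in DPB2oe1.11.5, and Col-0 overlapped each. Per kb, H3.1 stood to H3.3 as 0.758, 0.731 and 0.693 in the Col-0 libraries, 0.993, 1.04 and 1.28 in those of abo4-1, 1.05, 1.05 and 0.854 in those of DPB2oe12.1.5, and 0.849, 0.813 and 0.894 in those of DPB2oe1.11.5. All 9 libraries of the 3 genotypes were above all 3 of Col-0. With AT5G65360 left out of H3.1, a choice made after its values were seen, the ratio was 0.427 ± 0.0122 in Col-0, 0.579 ± 0.112 in abo4-1, 0.515 ± 0.0655 in DPB2oe12.1.5 and 0.525 ± 0.0421 in DPB2oe1.11.5, and again 9 of 9 lay above. The 3 libraries without high LHY outside DPB2oe1.11.5, namely DPB2oe12.1.5 replicate 3 and abo4-1 replicates 1 and 3, had 0.854, 0.993 and 1.28. For all replication-dependent over all replacement genes the ratio was 2.41 ± 0.0563 in Col-0, 2.88 ± 0.330 in abo4-1, 2.77 ± 0.148 in DPB2oe12.1.5 and 2.62 ± 0.0936 in DPB2oe1.11.5, with 9 of 9 above. Canonical H2A over H2A.Z did not separate in this way, with 5 of 9 above. The ratio over all genes is not separate from that of H3.1 to H3.3. Over the 12 libraries, H3.3 made up 756 of 948 CPM per kb of the replacement sum. H3.1 made up 688.5 of 2523 of the replication-dependent sum. In DPB2oe1.11.5 the replication-dependent and replacement sums were 0.925 and 0.854 of their Col-0 means. These ratios were formed from genes chosen with results in view and are given without a test.

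H4 genes, whose products are the same core histone in every nucleosome, gave sums of 374.5 ± 28.5 CPM in Col-0, 405.1 ± 30.8 in abo4-1, 408 ± 12.3 in DPB2oe12.1.5 and 367 ± 9.36 in DPB2oe1.11.5, and none of the 8 was called. AT5G59690, the highest, was at 129.9, 115 and 107 CPM in Col-0, 155, 163 and 133 in abo4-1, 162, 125 and 154.5 in DPB2oe12.1.5, with 113.5, 108 and 104 in DPB2oe1.11.5. Only the abo4-1 libraries lay wholly apart from Col-0 (log2 0.36, edgeR adjusted p = 0.478). The range of the 8 in abo4-1 was -0.21 to 0.36.

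**Figure D4:**
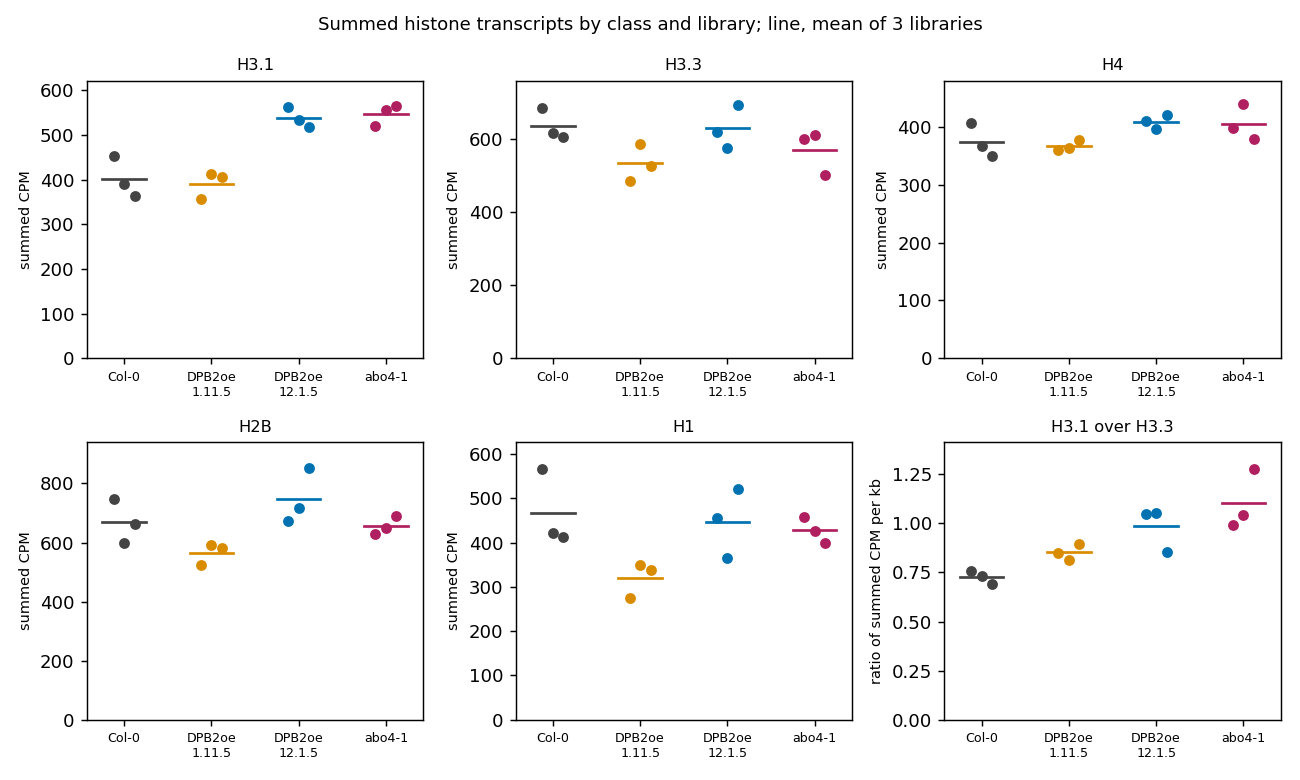
Summed CPM (y axis) of H3.1, H3.3, H4, H2B and H1 genes in each library by genotype, and the ratio of H3.1 to H3.3 per kb; lines are means of 3 libraries. The ratio lies between 0.693 and 0.758 in Col-0 and between 0.813 and 1.28 in the 9 other libraries.

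HTR12 encodes CENH3, the H3 variant that marks centromeres and is loaded in Arabidopsis mainly in G2. Its CPM was 3.44, 4.60 and 3.67 in Col-0, 7.28, 9.97 and 9.88 in abo4-1, 5.23, 7.34 and 7.33 in DPB2oe12.1.5, with 3.18, 4.89 and 7.55 in DPB2oe1.11.5. The abo4-1 and DPB2oe12.1.5 libraries were above all Col-0 libraries, and those of DPB2oe1.11.5 overlapped Col-0. The log2 value in abo4-1 was 1.22 ± 0.29 (SE), the largest upward value among the 40 genes, and did not pass by edgeR (adjusted p = 0.0829). It passed with DESeq2 (0.00830), without the filter (0.0313), with a replicate block (0.0312) and with LHY as a covariate (0.0461). It was 0.42 in DPB2oe1.11.5 (adjusted p = 0.534), and DPB2oe12.1.5 had 0.78 (0.208).

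H2AXA, an H2A.X gene whose product is phosphorylated at DNA breaks, was at 97.6, 82.2 and 92.6 CPM in Col-0, 75.3, 77.7 and 123 in abo4-1, 70.5, 56.5 and 64.9 in DPB2oe12.1.5, with 57.6, 55.9 and 53.7 in DPB2oe1.11.5. Both overexpressors lay below all Col-0 libraries and abo4-1 overlapped Col-0. Its log2 value was -0.70 in DPB2oe1.11.5 (edgeR adjusted p = 0.0925), while DPB2oe12.1.5 had -0.51 (0.186). The first passed with DESeq2 (0.0221), with only these genotypes fitted (0.0363) and with LHY as a covariate (0.0377). GAMMA-H2AX, the other H2A.X gene, had 0.19 in DPB2oe1.11.5, and 0.20 was its value in DPB2oe12.1.5. Of the H2A.W genes, whose variant is known from heterochromatin, none was called. HTA6, the highest, was at 126, 109 and 83.9 CPM in Col-0, 88.8, 102 and 93.1 in abo4-1, 119.5, 109 and 125 in DPB2oe12.1.5, with 98.3, 104 and 100.1 in DPB2oe1.11.5, and all groups overlapped Col-0.

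None of the 3 linker H1 genes was called in any genotype. Their sum was 467 ± 85.3 CPM in Col-0, 427.5 ± 30.3 in abo4-1, 447 ± 78.2 in DPB2oe12.1.5 and 321 ± 40.7 in DPB2oe1.11.5. AT1G06760, the highest H1 gene per kb, was at 397, 266 and 271 CPM in Col-0, 311, 284 and 266 in abo4-1, 287, 221 and 305 in DPB2oe12.1.5, with 145, 214 and 196 in DPB2oe1.11.5. Its DPB2oe1.11.5 libraries lay below every library of the other genotypes. The log2 value of -0.75 did not pass by edgeR (adjusted p = 0.101), but passed with DESeq2 (0.0233), without the 4 libraries of high LHY (0.0452) and with LHY as a covariate (0.0239). AT2G30620 was at 160, 146 and 132 CPM in Col-0 and 119, 128 and 128 in DPB2oe1.11.5 (log2 -0.22, adjusted p = 0.518). In DPB2oe12.1.5 it was at 161, 139 and 202, and in abo4-1 at 131, 135 and 118. HIS1-3, an H1 known to be induced by drought, was at 8.63, 11.1 and 9.72 CPM in Col-0, 16.5, 7.11 and 13.7 in abo4-1, 6.67, 5.30 and 14.7 in DPB2oe12.1.5, with 10.1, 8.43 and 13.6 in DPB2oe1.11.5, and all groups overlapped.

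Within genotypes, 1 histone gene moved with LHY. AT2G28720 (H2B) was at 13.0, 23.9 and 25.6 CPM in Col-0, 14.6, 7.95 and 23.2 in abo4-1, 6.91, 8.97 and 28.6 in DPB2oe12.1.5, with 24.2, 10.3 and 27.5 in DPB2oe1.11.5. Its 4 lowest values are those of the 4 libraries with the highest LHY. With genotype in the model it changed by -0.34 ± 0.05 (SE) on the log2 scale per log2 unit of LHY (edgeR adjusted p = 0.000631), and 11.8% of all tested loci were called in the same fit, 6.08% as lower with higher LHY. HIS1-3 had -0.17, which did not pass (adjusted p = 0.0810). Whether time of harvest set LHY in these libraries was not tested.

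**Figure D5:**
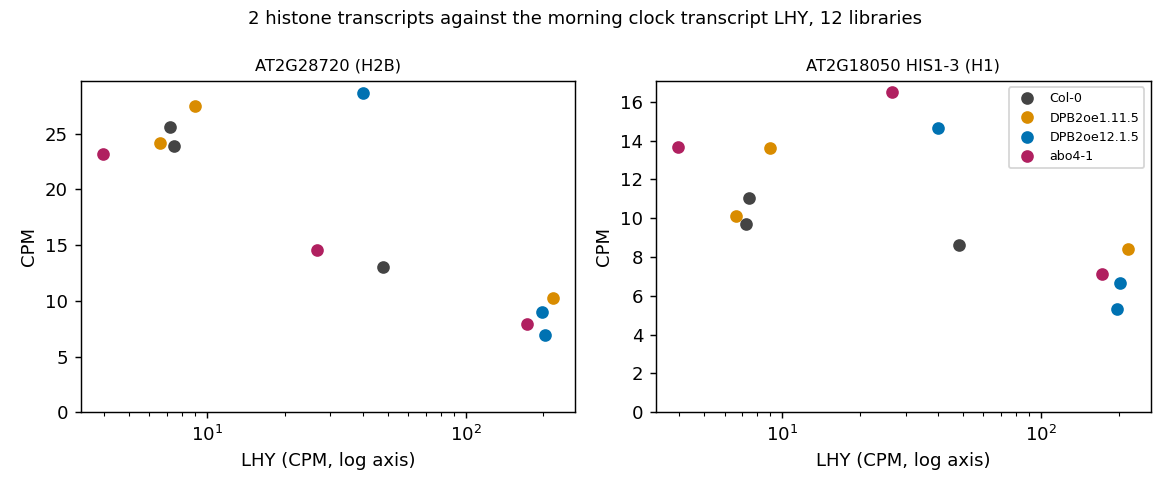
CPM of AT2G28720 (left) and HIS1-3 (right) against LHY (CPM, log axis) in 12 libraries, coloured by genotype. The 4 libraries with LHY at 173 to 217 CPM hold the lowest AT2G28720 values, 6.91 to 10.3 CPM.

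Set directly against each other, abo4-1 and DPB2oe1.11.5 differed in 3 of 40 histone genes, 2 higher (RAT5 at 0.98, edgeR adjusted p = 0.0417, and AT5G65360) and 1 lower (AT3G53650) in abo4-1, where 1.64% of all loci were called, 1.28% as higher and 0.361% as lower. Both higher calls ended without replicate 1 or 3 of either genotype, which left AT3G53650 alone. Deviations from the genotype means correlated at 0.552 between replicates 2 of these genotypes, which are both libraries of high LHY. They correlated at 0.348 between replicates 3 and 0.137 between replicates 1. DPB2oe1.11.5 replicate 1 and abo4-1 replicate 3 correlated at 0.313. Whether replicate number or LHY goes with these deviations was not tested. With a replicate block and only these genotypes fitted, 5 histone genes were called, HTB2 and AT1G09200 joining as higher. The share of all loci in that fit was not taken. Against DPB2oe12.1.5, abo4-1 differed in 1 of 40 (0.713% of loci, 0.371% as lower). The overexpressors differed in 0 of 40 by edgeR (0.0301% of loci), with 12 higher and 1 lower in DPB2oe12.1.5 at an unadjusted p under 0.05 (9.34% and 8.60% of loci) and 1 called by DESeq2.

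A list of 26 chaperones, deposition factors and other chromatin genes, ATXR5 and ATXR6 among them, held 1 called gene in abo4-1, where 0.783% of all loci were called. It held none in DPB2oe1.11.5 or DPB2oe12.1.5 (0.708% and 0.427%). DDM1 (CHR1 in RefSeq), a remodeller needed for heterochromatin, rose by 0.71 on the log2 scale in abo4-1 (edgeR adjusted p = 0.0293). By an unadjusted p under 0.05, 5 were higher and 3 lower in DPB2oe12.1.5 (8.03% and 8.65% of all loci), and 4 higher and 1 lower in DPB2oe1.11.5 (6.14% and 8.78%). FAS1, a CAF-1 subunit, had log2 values of 0.58 in abo4-1, 0.31 in DPB2oe12.1.5 and 0.26 in DPB2oe1.11.5, and HIRA had -0.32, -0.17 and -0.25 in the same order, none of which passed. Of 17 S-phase genes, 4 were called higher in abo4-1 and 2 in each overexpressor, where 0.567% of all loci were called higher in abo4-1, 0.201% in DPB2oe12.1.5 and 0.176% in DPB2oe1.11.5. At an unadjusted p under 0.05 (edgeR), 7 were higher in abo4-1, 4 in DPB2oe12.1.5 and 10 in DPB2oe1.11.5. Of all loci, 927 of 19924, 8.03% and 6.14% were higher by that measure. TK1a, thymidine kinase, rose by 2.84, 1.90 and 1.48 in the same order, and TSO2, of ribonucleotide reductase, by 2.83 in abo4-1 and 1.32 in DPB2oe12.1.5 (adjusted p = 0.0305). CDC45 of the replicative helicase, at 1.07, and RNR1, at 1.05, were the others in abo4-1, and RNR1 rose by 0.80 in DPB2oe1.11.5 (adjusted p = 0.0392). RNR1 had 0.78 in DPB2oe12.1.5 (edgeR adjusted p = 0.0541) and TSO2 had 0.925 in DPB2oe1.11.5 (0.0952), neither of which passed. The difference between the overexpressors passed for neither RNR1 (edgeR adjusted p = 0.966) nor TSO2 (0.388). Of 10 G2/M genes, 5 rose in abo4-1 (0.567% of all loci), with CYCB1;1 at 1.15. In the overexpressors 0 were called by edgeR, with 6 higher in DPB2oe1.11.5 at an unadjusted p under 0.05 (6.14% of loci) and 1 higher in DPB2oe12.1.5 (8.03%). Summed, the S-phase genes were at 357 ± 28.5 CPM in Col-0, 1037 ± 186 in abo4-1, 554 ± 90.8 in DPB2oe12.1.5 and 548 ± 24.5 in DPB2oe1.11.5. The 25 replication-dependent histone genes were at 1608 ± 138, 1776 ± 61.5, 1863 ± 82.5 and 1487 ± 63.8 in the same order. TSO2 alone went from 85.7 CPM in Col-0 to 611 in abo4-1. The other 16 S-phase genes summed to 271 ± 20.3 in Col-0, 426 ± 33.4 in abo4-1, 341 ± 54.3 in DPB2oe12.1.5 and 386 ± 28.6 in DPB2oe1.11.5. The median log2 fold change of the 17 was 0.215 in abo4-1, 0.115 in DPB2oe12.1.5 and 0.441 in DPB2oe1.11.5. Of 5 ABA and dehydration markers none was called in any genotype.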

How the data were processed

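Counts of messenger RNA reads per transcript in 12 seedling libraries, 3 for each of 4 genotypes, are raw counts as the authors deposited them. Per the file headers, reads with several hits of equal score had been removed, which was 2.09% to 3.01% of mapped reads. The build is TAIR10, per the submitters' processing notes; the aligner is not given in the sources used here. Members and gene lists were chosen with earlier results of these data known.

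Counts were matched to loci by removing the transcript suffix, with 1 transcript per locus and no summing. The 12 libraries were fitted together in edgeR 4.0.16 (R 4.3.3) with TMM scaling, filterByExpr and 1 mean per genotype. Tests were robust quasi-likelihood tests, with Benjamini-Hochberg adjustment over 19924 loci. A gene was called under 0.05. The fit was tested on simulated data. Genes given in every library were those called in any of 6 comparisons, the highest per class, the 10 of lowest p against Col-0, CENH3 and H1; other genes are given by range, and AT2G28720, HTB1 and further examples were chosen after their values were seen. Alternatives were DESeq2 1.42.0, RLE and upper-quartile scaling, no filter, only the genotypes compared, a replicate block, each library left out, and LHY as a covariate or its 4 highest libraries left out.

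The labels do not say that replicate numbers mark a shared sowing. Deviations from the genotype means correlated over 0.1 for every same-numbered pair only between DPB2oe1.11.5 and abo4-1 (0.137, 0.552 and 0.348). DPB2oe1.11.5 replicate 1 also correlated with abo4-1 replicate 3 (0.313), and replicate 3 with replicate 1 (0.132). The common biological coefficient of variation was 22.6%. Sequences came from RefSeq TAIR10.1; 7 of 40 members have a RefSeq transcript of the deposited length.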

Additional observations from a re-analysis of the deposited data

Results flagged for a closer look

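Differences between genotypes whose effects were compared by a test of the difference itself, in the joint edgeR fit with adjustment over all loci, are listed here. AT3G53650 was lower in abo4-1 than in DPB2oe1.11.5 by a log2 value of -2.20 (adjusted p = 0.000997) and than in DPB2oe12.1.5 by -1.99 (adjusted p = 0.00312), in 3 of 3 abo4-1 libraries each time. RAT5 (AT5G54640) was higher in abo4-1 than in DPB2oe1.11.5 by 0.98 (adjusted p = 0.0417), and AT5G65360 by 0.79 (adjusted p = 0.0177), both in 3 of 3 libraries. These last 2 calls were each lost without replicate 1 or 3 of either genotype, and that of AT5G65360 also with only these genotypes fitted.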

How the results depend on the processing

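In abo4-1 against Col-0, 2 histone genes were called, 4 without the filter on low counts, 6 with DESeq2, 1 with only these genotypes fitted, 5 with LHY as a covariate, and 1 to 2 with a library left out. In DPB2oe1.11.5 it was 1, with 5 by DESeq2, 2 with only these genotypes, 5 without the 4 libraries of highest LHY, 5 with LHY as a covariate, and 0 to 2 with a library left out. DPB2oe12.1.5 had 0, with 1 by DESeq2 and 0 with any library left out. Between abo4-1 and DPB2oe1.11.5 it was 3, with 7 by DESeq2, 8 without the 4 libraries, 8 with the covariate, 5 with a replicate block fitted on these genotypes alone (added after seeing the data) and 1 to 4 with a library left out. Between abo4-1 and DPB2oe12.1.5 it was 1, with 3 by DESeq2 and 2 with the covariate. Between the overexpressors it was 0, with 1 without the filter, 1 by DESeq2, 3 without the 4 libraries, 1 with the covariate, and 0 to 2 with a library left out. AT3G53650 was in every abo4-1 count above. The share of all loci called was taken only in the main fit. Whether the histone counts moved more than that share under the alternatives was therefore not tested. With the replicate block fitted on all 12 libraries the counts were 2, 1, 0, 3, 1 and 0 in the order above, the 2 in abo4-1 being AT3G53650 and HTR12 in place of HTA11. The replication-dependent median in DPB2oe1.11.5 ran from -0.114 to 0.047 with a library left out, -0.114 being without Col-0 replicate 3, and the replacement median in DPB2oe12.1.5 was 0.183 without the 4 libraries of highest LHY, which leaves 1 library of that genotype, assumed to vary like the others. The cause of these changes was not tested. For 18 named genes under 14 alternatives per comparison with Col-0, 692 of 756 values kept direction and side of the threshold, 13 lost a call, 21 gained one, 30 uncalled values changed sign, and no called value reversed. No other scaling moved the median of all loci by more than 0.018. Counts of 15 to 27 reads per abo4-1 library limit the precision of AT3G53650.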
